A study of Homo sapiens with 2 samples.

Results

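The genes that carry transferrin receptor into the cell and acidify the vesicle it travels in were examined in NK92 cells, an established human natural killer cell line, with and without an antibody to the receptor. The 40 genes were taken by symbol from a prepared list, and each of the 40 symbols had a row among the 46427 rows of the deposited table. They comprise 3 clathrin chains, 5 subunits of the AP2 adaptor, 4 clathrin accessory proteins, 7 RAB GTPases, 5 tethering and sorting proteins, 6 subunits of the membrane sector of the vacuolar ATPase (V0), 8 subunits of its cytosolic sector (V1) and 2 accessory subunits.

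The starting culture, grown in Artemis medium with 2% human serum, had been incubated for 18 h when it was split into a pair of equal dishes. The dish here called PPMX-T003 received 10 µg/mL of PPMX-T003, an antibody that blocks transferrin receptor 1 (TfR1), for 6 h, and the dish called Control received nothing. The methods give both dishes 6 h of further culture, whereas the deposited columns are named by 0 h and 6 h, so a difference in harvest time cannot be told apart from the exposure. Each dish gave 1 poly(A) RNA library, with 46766416 counts for Control and 43178462 for PPMX-T003, so no difference has a replicate check and no p-value is given. A difference between these libraries is a difference between 2 dishes of 1 cell line.

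The libraries carried the markers of the cell line. All 10 natural killer markers were counted in both, led by NKG7 with a TPM (a level per transcript length, on a scale common to all genes of a library) of 3215 in Control and 3445 in PPMX-T003. Their summed TPM was 6733 and 7314. Of 8 T cell markers, CD3D, CD3G, CD8A and CD5 had no count in either library and CD4 had 4 and 0, while the T cell receptor constant genes TRAC, TRBC1 and TRBC2 were counted, with TRBC1 highest at a TPM of 330 and 385. The summed T cell marker TPM was 666 and 756. Among B cell markers, MS4A1 had no count, CD79A had 14 and 12, CD79B had 2 and 0, and PAX5 had 169 in Control and 78 in PPMX-T003, for a log2 ratio of -0.98 (95% counting interval -1.40 to -0.60). The 6 erythroid markers had no count, and the 5 myeloid markers had a summed TPM of 8 and 10, mostly from CD68. CD68 had 188 counts in Control and 268 in PPMX-T003, for a log2 ratio of 0.62 (0.35 to 0.91). The intervals of CSF1R and ITGAM held 0.

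Transferrin that has loaded iron binds its receptor at the cell surface, and the AP2 adaptor gathers the receptor into clathrin-coated pits that dynamin cuts off. RAB5 and its tethers fuse the vesicles into early endosomes, where the V-ATPase pumps protons and the acid releases the iron. RAB4, RAB11, sorting nexins and EHD proteins then return the receptor and its empty ligand to the surface, and RAB7 takes other cargo on to lysosomes.

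The receptor gene itself, TFRC, had 19063 counts in Control and 18223 in PPMX-T003, and its TPM was 184 in both. After scaling to library size its log2 ratio, PPMX-T003 over Control, was 0.05 (95% interval 0.02 to 0.08). This interval, used for all genes here, covers counting error only. It treats the deposited values, which are estimated from coverage, as independently counted reads. As counted, the transcript of the antibody's target therefore differed little between the libraries, with its interval just above 0. Log2 ratios of all genes followed the GC content and length of their transcripts, and with this trend removed TFRC lay at 0.17 (0.14 to 0.20). Of the remaining genes of transferrin cargo and iron exit, STEAP3, the ferrireductase of erythroid endosomes, was listed at 0 in both libraries, and TF, transferrin, had 4 counts in each. SLC11A2, the endosomal iron transporter, had 1230 and 1124 counts and a log2 ratio of -0.01 (-0.13 to 0.10).

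The machinery was expressed almost throughout. Of the 40 members, 39 had at least 20 counts over both libraries, the minimum for a log2 ratio, and each of these 39 had at least 1000. The exception was ATP6V0A1, which was listed at 0 in both libraries. Other pathway genes, such as OCRL, SNX9 and DMXL2, were also listed at 0 in both, and whether a listed 0 means an absent transcript was not tested. Together the members took 0.469% of the counts in Control and 0.471% in PPMX-T003.

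No member reached 2-fold. Past 2-fold in either direction were 0 of 39 members, against 2.64% of the 13665 genes tested and 0.0598% of the 8359 genes with at least 1000 counts. The latter are the closer background, because every tested member is as deeply counted and genes with few counts pass 2-fold more often, so the absence of a 2-fold difference was shared with nearly all such genes. The log2 ratios of the members ran from -0.16 for RAB5A to 0.29 for ATP6V0D1, with a median of 0.06, against 0.00 for all genes tested. With the GC and length trend removed the members' median was 0.02, and with the authors' TPM it was 0.01. In bulk RNA, a lower level in every cell and fewer cells that express a gene cannot be told apart.

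Small differences were nonetheless larger than counting error, as these intervals measure it, for most members. The interval lay above 0 for 19 of 39 members, against 21.8% of all genes tested and 27.7% of genes with at least 1000 counts. It lay below 0 for 11 of 39, against 23.9% and 32.2%. The remaining 9 members had intervals that held 0. As counted, the members thus divided into a larger group that was slightly higher in PPMX-T003 and a smaller group that was slightly lower, and all role groups but V0, which had none below 0, held some of both. Genes with at least 1000 counts divided as well, and the share of members below 0, 28.2%, was near theirs. The direction went with GC content, as described below, and without the trend 15 members were above 0 and 5 below.

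**Figure D1:**
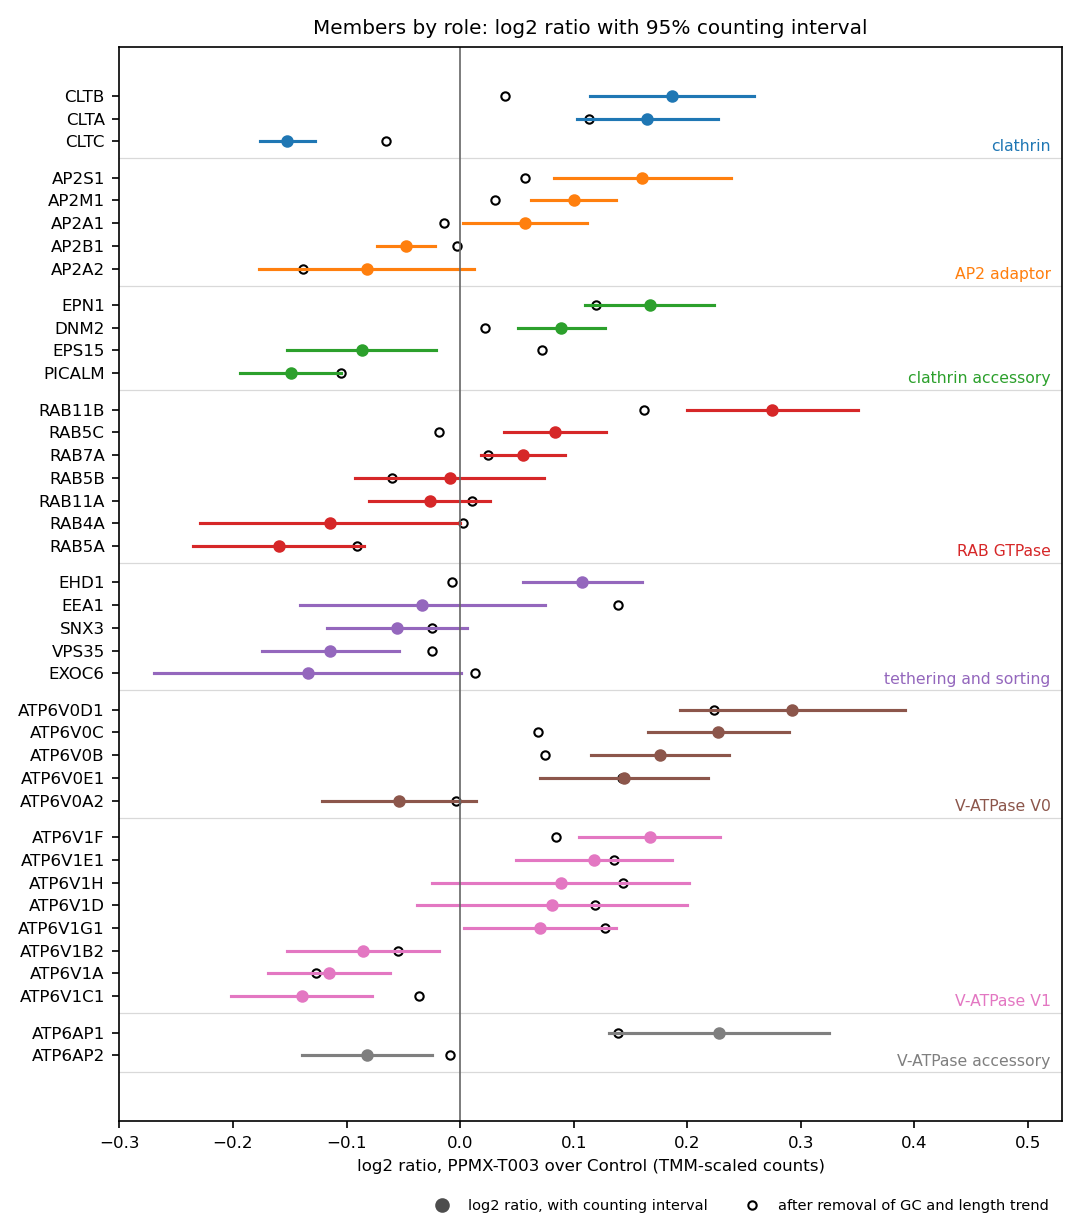
Log2 ratio of each of the 39 members with counts (filled points) with its 95% counting interval (bars), by role, and the value after removal of the trend with GC content and transcript length (open points). ATP6V0D1 and RAB11B lie farthest above 0 and RAB5A farthest below, and AP2A1, EPS15, RAB4A, RAB5C, RAB11A, EEA1, EHD1 and EXOC6 change side of 0 when the trend is removed.

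The chains of the clathrin coat lay on both sides of 0 as counted. CLTC, the heavy chain that forms the legs of the triskelion, had 30174 counts in Control and 25035 in PPMX-T003, for a log2 ratio of -0.15 (-0.18 to -0.13). The light chains, which bind along the heavy chain, were higher, with 4151 and 4291 counts for CLTA and a log2 ratio of 0.16 (0.10 to 0.23). CLTB had 3024 and 3173 counts and a log2 ratio of 0.19 (0.11 to 0.26). As counted, the chains of the coat thus moved apart at the RNA level. The TPM of CLTC was 173 in Control and 150 in PPMX-T003, while the summed TPM of the light chains was 314 and 342. The pairs of genes compared here and below were chosen after the values were seen. Counted reads of CLTA over those of CLTC gave a ratio that was higher in PPMX-T003 by 0.32 on the log2 scale (0.25 to 0.38), and CLTB over CLTC one higher by 0.34 (0.26 to 0.41). With the GC and length trend removed these became 0.18 (0.11 to 0.24) and 0.10 (0.03 to 0.18), and with the longest transcript of each gene as the measure 0.08 (0.02 to 0.15) and 0.03 (-0.05 to 0.10). The calls of single chains also weakened. CLTB was at 0.04 (-0.03 to 0.11) without the trend, and CLTC was at -0.07 (-0.09 to -0.04), and at -0.02 with an interval that held 0 with the longest transcript. CLTCL1, the second heavy chain gene, was listed at 0.

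Of the AP2 subunits, which bind the receptor's tail and the membrane, 3 of 5 had intervals above 0 and 1 had an interval below it, against 27.7% and 32.2% of genes with at least 1000 counts. AP2M1, the medium subunit that reads the sorting signal, had 11594 and 11459 counts and a log2 ratio of 0.10 (0.06 to 0.14). AP2S1, the small subunit, had 2623 and 2703 counts and a log2 ratio of 0.16 (0.08 to 0.24). AP2A1, an alpha subunit with 5532 and 5308 counts, was near the edge of its call, at 0.06 with a lower bound just above 0. The large beta subunit AP2B1 went the other way, with 26231 and 23397 counts and a log2 ratio of -0.05 (-0.07 to -0.02). The second alpha subunit AP2A2 had 1959 and 1706 counts and a log2 ratio of -0.08 (-0.18 to 0.01). In TPM, AP2A1 made 79.0% of the alpha subunit in Control and 80.6% in PPMX-T003. With the trend removed, AP2A2, at -0.14 (-0.23 to -0.04), was the sole subunit of the adaptor whose interval lay off 0, and AP2A1 changed sign to -0.01.

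Of the 4 accessory genes of the pit, 2 had intervals above 0 and 2 below, a mix that was also usual among genes with at least 1000 counts (27.7% and 32.2%). PICALM, which bends the membrane and sizes the coat, had 8848 and 7356 counts and a log2 ratio of -0.15 (-0.19 to -0.10). EPS15, a scaffold of the pit's rim, had 4067 and 3531 counts and a log2 ratio of -0.09 (-0.15 to -0.02). EPN1, an epsin that links ubiquitinated cargo to the coat, had 4913 and 5086 counts and a log2 ratio of 0.17 (0.11 to 0.22). DNM2, the dynamin that cuts the neck of the pit, had 11160 and 10947 counts and a log2 ratio of 0.09 (0.05 to 0.13). Without the trend PICALM stayed below 0 at -0.11 and EPN1 above it at 0.12 (0.26 with the longest transcript), while DNM2 was at 0.02 (-0.02 to 0.06) and EPS15 changed sign to 0.07 (0.01 to 0.14). EPN1 shares exons on its strand with another annotated gene, and its reads cannot be fully told apart from that gene's.

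Within the pit, the paralogs in use were the common ones. DNM2 took all of the rounded dynamin TPM and EPN1 all of the rounded epsin TPM in both libraries, with 34 and 41 counts for DNM3, 22 and 19 for EPN2, and none for DNM1 and EPN3. EPS15L1, with a TPM of 33 and 31, stood close to EPS15, with 38 and 35.

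Among the RAB GTPases, the switches that give endosomes their identity, isoforms of a family lay apart as counted. The gaps of RAB5C over RAB5A, RAB11B over RAB11A and RAB4B over RAB4A each held 0 under a form of trend removal. Of the 7 members, 3 had intervals above 0 and 2 below, against 27.7% and 32.2% of genes with at least 1000 counts. RAB5C, with a TPM of 234 in Control and 239 in PPMX-T003, was the main early endosome RAB5 and had 8044 and 7859 counts, for a log2 ratio of 0.08 (0.04 to 0.13). RAB5A, at a TPM of 58 and 51, had 3161 and 2609 counts and a log2 ratio of -0.16 (-0.24 to -0.08). RAB5B, at a TPM of 29 and 30, had a log2 ratio of -0.01 (-0.09 to 0.07). RAB5A thus made 18.1% of the RAB5 TPM in Control and 15.9% in PPMX-T003. Reads of RAB5C over RAB5A gave a ratio higher in PPMX-T003 by 0.24 on the log2 scale (0.16 to 0.33), by 0.07 (-0.01 to 0.16) without the trend and by 0.12 (0.03 to 0.20) with the longest transcript. Without the trend RAB5C itself changed sign to -0.02, while RAB5A remained below 0 at -0.09 (-0.17 to -0.02).

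RAB11, the RAB of the slow recycling route, showed a like gap. RAB11B rose from 2688 counts in Control to 2999 in PPMX-T003 although the PPMX-T003 library was the smaller, for a log2 ratio of 0.27 (0.20 to 0.35). RAB11A had 5895 and 5335 counts and a log2 ratio of -0.03 (-0.08 to 0.03). The TPM was 81 and 95 for RAB11B against 58 and 55 for RAB11A, so RAB11B made 58.3% of the family in Control and 63.3% in PPMX-T003. The count ratio of RAB11B over RAB11A was higher by 0.30 (0.21 to 0.39), by 0.15 (0.06 to 0.24) without the trend, and by 0.02 (-0.07 to 0.11) when the trend was taken from the longest transcripts. RAB11B itself stayed above 0 under both forms, at 0.16 and 0.12, and RAB11A came above 0 under the second, at 0.10 (0.05 to 0.16).

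RAB4, the RAB of the fast recycling route, again had isoforms on either side of 0, at lower counts. RAB4A had 1356 and 1155 counts and a log2 ratio of -0.11, with the upper bound of its interval at the edge of 0, and 0.00 without the trend. It shares exons with another annotated gene, as does RAB5C. Its paralog RAB4B, at a TPM of 13 and 15, had 310 and 351 counts and a log2 ratio of 0.29 (0.07 to 0.52), which became 0.20 (-0.02 to 0.43) without the trend, and it shares exons with readthrough genes. RAB7A, of late endosomes, was among the most abundant members with a TPM of 268 in both libraries, and had 12181 and 11670 counts and a log2 ratio of 0.06 (0.02 to 0.09), which became 0.02 without the trend. RAB7B was listed at 0, and RAB25 had 0 and 2 counts.

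Of the 5 tethering and sorting genes, EHD1 was higher, VPS35 was lower and the others were within counting error as counted. This was 20% each way, against 27.7% above and 32.2% below among genes with at least 1000 counts. EHD1, an ATPase that cuts recycling tubules, had 5928 and 5889 counts and a log2 ratio of 0.11 (0.06 to 0.16). VPS35, the core of retromer, had 4837 and 4120 counts and a log2 ratio of -0.11 (-0.17 to -0.05). Neither call held without the trend, at -0.01 and -0.02. EEA1, the long coiled tether that RAB5 recruits, had the lowest TPM of the tested members, 7 in both libraries, with 1476 and 1330 counts and a log2 ratio of -0.03 (-0.14 to 0.07). Without the trend EEA1 was called above 0, at 0.14 (0.03 to 0.25), and at 0.17 (0.06 to 0.27) with the longest transcript. SNX3, a sorting nexin that takes part in receptor recycling, had 4484 and 3978 counts and a log2 ratio of -0.06 (-0.12 to 0.01). EXOC6, an exocyst subunit whose loss causes iron-deficiency anaemia in mice, had the fewest counts of the tested members, 981 and 824, and a log2 ratio of -0.13 (-0.27 to 0.00). EHD4, at a TPM of 27 and 25, was the other EHD gene in use, and EHD2, EHD3 and EXOC6B were listed at 0.

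**Figure D2:**
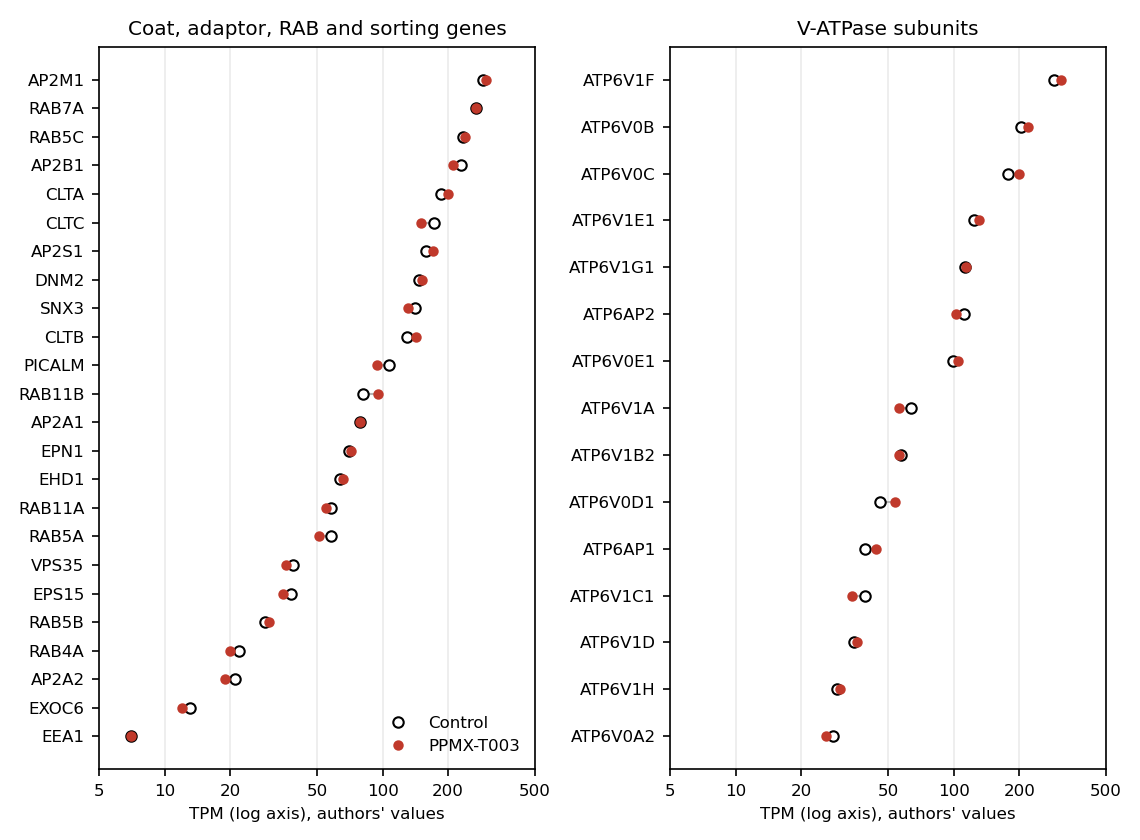
Level of each of the 39 tested members in the Control and PPMX-T003 libraries as the authors' TPM, on a log axis, with coat, adaptor, RAB and sorting genes on the left and V-ATPase subunits on the right. Levels run from 7 for EEA1 to 289 and 312 for ATP6V1F, and none of them differs by 2-fold between the libraries.

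The membrane sector of the V-ATPase, through which protons cross, was the role group with the highest median log2 ratio as counted, 0.18. Its interval lay above 0 for 4 of 5 tested subunits and below 0 for none, against 27.7% and 32.2% of genes with at least 1000 counts. ATP6V0D1, the subunit that couples the rotor to the proteolipid ring, had 1563 counts in Control and 1765 in PPMX-T003, and its log2 ratio of 0.29 (0.19 to 0.39) was the highest of all members. ATP6V0C, the proteolipid of the ring, had 4030 and 4350 counts and a log2 ratio of 0.23 (0.17 to 0.29). ATP6V0B, a second proteolipid of the ring, had 4293 and 4473 counts and a log2 ratio of 0.18 (0.12 to 0.24). The parts of the ring and its coupling subunit were thus each higher in PPMX-T003. ATP6V0E1, a small membrane subunit, had 2921 and 2977 counts and a log2 ratio of 0.14 (0.07 to 0.22). ATP6V0A2, an isoform of the large subunit a, which forms the proton path, had 3719 and 3304 counts and a log2 ratio of -0.05 (-0.12 to 0.01).

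Removal of the trend lowered most of these V0 differences, left that of ATP6V0E1 as it was, and ended few of them. Without the trend ATP6V0D1 was at 0.22 (0.12 to 0.32), ATP6V0E1 at 0.14 (0.07 to 0.22) and ATP6V0B at 0.07 (0.01 to 0.14), and these 3 also kept intervals above 0 with the longest transcript. ATP6V0C was at 0.07 (0.01 to 0.13), and at 0.05 (-0.02 to 0.11) with the longest transcript. It shares exons on its strand with 2 other annotated genes. The median of V0 was then 0.07, below the 0.10 of V1, and with the longest transcript it was 0.10, above the 0.04 of V1.

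Subunit a came from more than 1 gene. ATP6V0A2 had a TPM of 28 in Control and 26 in PPMX-T003, and TCIRG1, the isoform known from osteoclasts and lymphocytes, had 19 and 22. TCIRG1 had 1274 and 1380 counts and a log2 ratio of 0.23 (0.12 to 0.34), and its share of the subunit's TPM was 40.4% and 45.8%. These shares rest on rounded TPM and take ATP6V0A1 at its listed 0, which was not tested as an absent transcript. The count ratio of TCIRG1 over ATP6V0A2 was higher in PPMX-T003 by 0.29 (0.16 to 0.41), and by 0.08 (-0.05 to 0.21) without the trend. TCIRG1 itself was then at 0.07 (-0.04 to 0.19), and it shares exons with 1 other annotated gene. ATP6V0A4, the renal isoform, was listed at 0, as was ATP6V0D2, the second subunit d. ATP6V0E2 had a TPM of 54 and 56, which was 35.3% and 34.8% of subunit e, and a log2 ratio of 0.07 (0.00 to 0.14), or -0.02 without the trend.

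**Figure D3:**
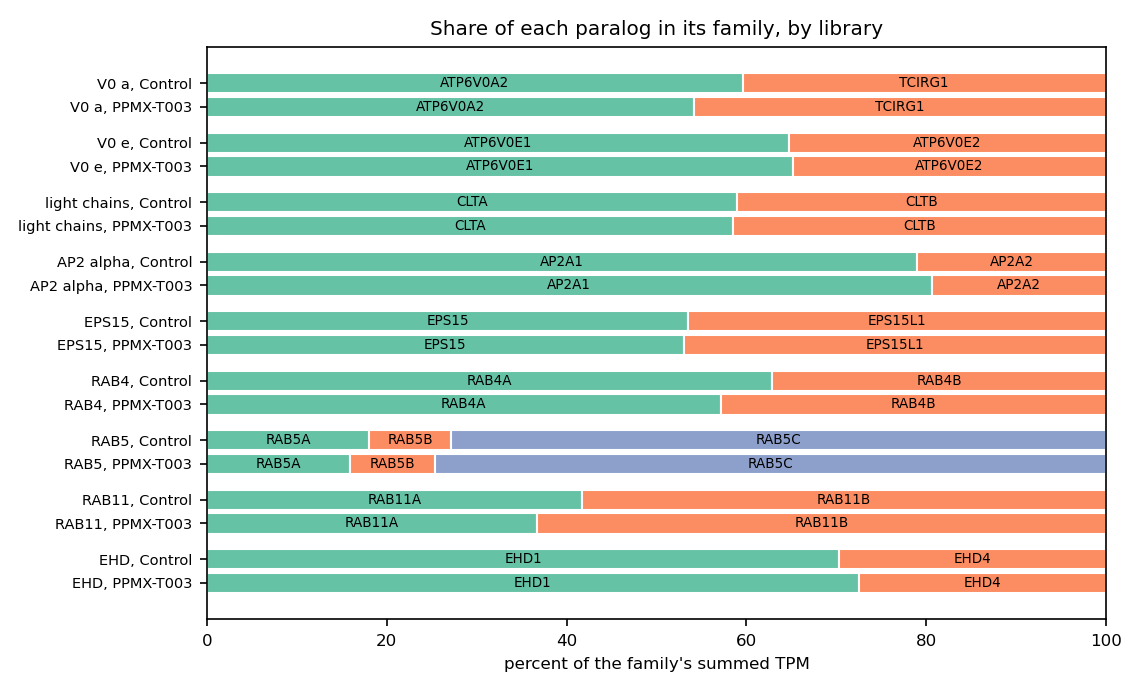
Share of each paralog in the summed TPM of its family, in percent, with a bar for Control and a bar for PPMX-T003 in each of the families with more than 1 gene above 100 counts. The borders move most in subunit a of V0, RAB4 and RAB11, where TCIRG1, RAB4B and RAB11B gain. The TPM are rounded and still hold the GC and length trend. The count ratios of TCIRG1 over ATP6V0A2, RAB4B over RAB4A and RAB11B over RAB11A each held 0 under a form of trend removal.

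The cytosolic sector, which splits ATP, had 3 of 8 subunits above 0 and 3 below (37.5% each way, against 27.7% and 32.2% of genes with at least 1000 counts), and the lower ones were the subunits A, B and C. ATP6V1A, the catalytic subunit A, had 6057 and 5155 counts and a log2 ratio of -0.12 (-0.17 to -0.06). ATP6V1B2, the B subunit that alternates with it in the head, had 3877 and 3369 counts and a log2 ratio of -0.09 (-0.15 to -0.02). ATP6V1C1, the subunit C that joins the sectors and leaves when the pump comes apart, had 4602 and 3853 counts and a log2 ratio of -0.14 (-0.20 to -0.08).

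The other 5 subunits of V1 had log2 ratios above 0, and the intervals of 3 of them lay above 0. ATP6V1F, of the central rotor, had 4138 and 4284 counts and a log2 ratio of 0.17 (0.11 to 0.23). ATP6V1E1, of the outer stalks, had 3456 and 3458 counts and a log2 ratio of 0.12 (0.05 to 0.19). ATP6V1G1, its partner in the outer stalks, had 3666 and 3550 counts and a log2 ratio of 0.07, with a lower bound just above 0. The remaining genes, with fewer counts, had ratios of like size within counting error. ATP6V1D, the rotor's shaft, had 1173 and 1144 counts and a log2 ratio of 0.08 (-0.04 to 0.20), and ATP6V1H, which links the head to V0, had 1288 and 1263 counts and 0.09 (-0.02 to 0.20).

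Removal of the trend changed these calls in part. With the median transcript as the measure, ATP6V1D, ATP6V1E1, ATP6V1F, ATP6V1G1 and ATP6V1H lay between 0.08 and 0.14 with intervals above 0, ATP6V1A lay at -0.13 (-0.18 to -0.07), and the intervals of ATP6V1B2 and ATP6V1C1 held 0. With the longest transcript, ATP6V1E1 alone kept its interval off 0, at 0.08 (0.01 to 0.15), and ATP6V1A was at -0.02 (-0.07 to 0.04). The count ratio of ATP6V0D1 over ATP6V1A, which sets the rotor coupling of V0 beside the catalytic subunit of V1, was higher in PPMX-T003 by 0.41 (0.30 to 0.52), the widest of the 16 pairs tried except for RAB4B over RAB4A, also at 0.41 (0.16 to 0.66) and at 0.20 (-0.05 to 0.45) without the trend. The ratio of ATP6V0D1 over ATP6V1A was 0.35 (0.24 to 0.46) without the trend and 0.20 (0.09 to 0.31) with the longest transcript. The pairs were chosen after the values were seen, and this one sets the member with the highest log2 ratio over one called below 0. Its gap as counted therefore follows from that choice and is no separate result about the sectors. The count ratio of ATP6V1B2 over ATP6V1A was level, at 0.03 (-0.06 to 0.12).

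Per transcript length, the subunits were far from equal. Among the members, ATP6V1F had the highest TPM of the pump, 289 in Control and 312 in PPMX-T003, and ATP6V0A2 the lowest of the tested subunits, 28 and 26. ATP6V1A and ATP6V1B2, of which the head holds equal numbers, had a TPM of 64 and 57 in Control and of 56 each in PPMX-T003. ATP6V0C, of which the ring holds many copies, had a TPM of 177 and 200. The alternative isoforms of V1 were nearly silent: ATP6V1B1 had 3 and 0 counts, ATP6V1C2 7 in each library and ATP6V1G3 0 and 4, and ATP6V1E2 and ATP6V1G2 made 0.8% and 3.42% of their subunits in Control.

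The accessory subunits went in opposite directions. ATP6AP1, which helps assemble V0 in the endoplasmic reticulum, had 1678 and 1812 counts and a log2 ratio of 0.23 (0.13 to 0.32). ATP6AP2, the prorenin receptor, had 5251 and 4574 counts and a log2 ratio of -0.08 (-0.14 to -0.02). Set over ATP6AP2, the count ratio of ATP6AP1 was higher in PPMX-T003 by 0.31 (0.20 to 0.42), by 0.15 (0.04 to 0.26) without the trend and by 0.20 (0.09 to 0.32) with the longest transcript. ATP6AP1 stayed above 0 under both forms, at 0.14 and 0.17, while ATP6AP2 came to -0.01.

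The trend that these values were set against ran through the whole transcriptome and was strong among the members. The 19 members with intervals above 0 had a median GC content of 57.6% over their protein-coding transcripts, and the 11 with intervals below 0 had 42.3%. Their median transcript lengths were 904 and 1816 bases. The groups overlapped, as GC content reached 47.9% among members with intervals below 0 and began at 42.0% among those above. Across the 39 members, log2 ratio and GC content had a Pearson correlation of 0.77, and across the 8297 annotated genes with at least 1000 counts 0.49; all of these genes come from the same 2 libraries, and genes are not independent replicates. Members with GC-rich transcripts, such as the light chains and the proteolipids, thus tended to lie high, and those with GC-poor transcripts, such as the heavy chain, PICALM and RAB5A, tended to lie low, with exceptions such as ATP6V1G1, which had the GC content of RAB5A and lay above 0. How the trend arose was not tested.

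**Figure D4:**
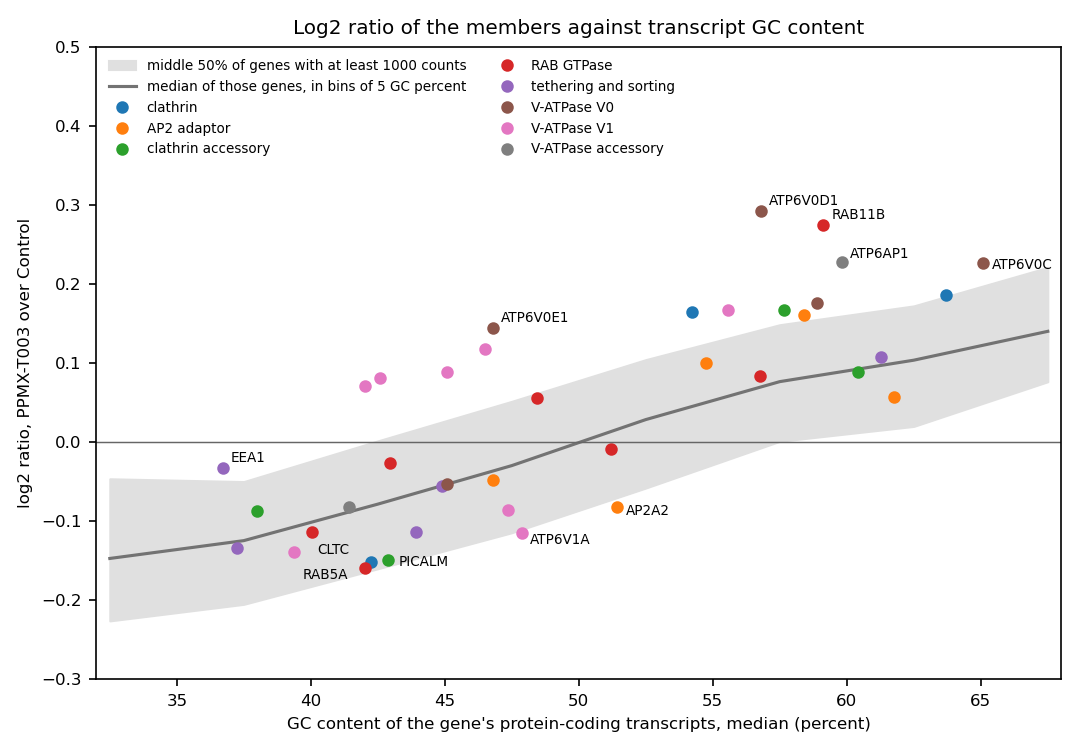
Log2 ratio of each member against the GC content of its transcripts in percent, coloured by role, over the median (line) and the middle 50% (band) of genes with at least 1000 counts in bins of 5 GC percent. The line climbs from -0.15 to 0.14, and ATP6V0D1, RAB11B, ATP6V0E1 and several V1 stalk subunits lie above the band.

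With a robust regression on GC content and log2 length removed, 15 of 39 members had intervals above 0 and 5 below, against 24.5% above and 24.5% below of the annotated genes with at least 1000 counts. When the regression took the longest transcript instead of the median, 11 were above and 3 below, against 22.8% each way. Of the 19 members above 0, 8 were so as counted and under both forms of removal, namely CLTA, EPN1, RAB11B, ATP6V0B, ATP6V0D1, ATP6V0E1, ATP6V1E1 and ATP6AP1. Of the 11 below 0, PICALM and RAB5A alone kept intervals below 0 throughout. The share of all genes that kept a call throughout was not computed. Whether these counts of kept calls are unusual therefore cannot be told. Of the 15 tested V-ATPase genes, 8 were above and 4 below 0 as counted, 10 and 1 without the trend, and 5 and 0 with the longest transcript.

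Among the other genes of the pathway, more were lower than higher as counted. In 7 lists of cargo, coat, endosome, sorting and pump-assembly genes, 125 of 141 listed genes were tested, and 24 had intervals above 0 (19.2%) and 44 below (35.2%), with a median log2 ratio of -0.03. All genes tested had 21.8% above and 23.9% below, and those with at least 1000 counts 27.7% and 32.2%, against which the counts of the single lists are also to be read. Without the trend the 125 genes had 25 above and 29 below (23.2%), against 2513 and 2502 (19.9%) of the 12545 annotated genes tested. Past 2-fold was 1 of the 125, against 2.64% of all genes tested and 0.0598% of genes with at least 1000 counts.

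The list gene past 2-fold was MYO5B, the motor that carries RAB11 recycling endosomes along actin. It had 1177 counts in Control and 457 in PPMX-T003, at a TPM of 6 and 2, and a log2 ratio of -1.24 (-1.41 to -1.09). Its value without the trend was much the same, -1.21. MYO5B shares exons on its strand with 1 other annotated gene. In its list of other early endosome and recycling genes, 6 of 36 tested were above 0 and 17 below, which became 8 and 9 without the trend and 8 and 7 with the longest transcript. RABEP2, which binds RAB5 and RAB4, had 645 and 820 counts and a log2 ratio of 0.46 (0.31 to 0.61). TBC1D10A, a GTPase-activating protein of RAB27 and RAB35, had 764 and 946 counts and 0.42 (0.29 to 0.56). PIKFYVE, the lipid kinase of endosomes, had 4408 and 3288 counts and -0.31 (-0.37 to -0.24), or -0.16 with the longest transcript.

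Of the transferrin cargo and iron exit genes, 6 of 10 were tested, with 2 above and 2 below 0. MCOLN1, a cation channel of late endosomes that can pass iron, had 512 and 622 counts and a log2 ratio of 0.40 (0.23 to 0.57), or 0.25 (0.09 to 0.43) without the trend, and it shares exons with 2 other annotated genes. The zinc and iron transporters SLC39A14 and SLC39A8 were lower, with 7207 and 6089 counts and -0.13 (-0.18 to -0.08) for the former, and 5021 and 4193 counts and -0.14 (-0.20 to -0.08) for the latter. Without the trend SLC39A14 was at -0.22 (-0.27 to -0.17), and the call of SLC39A8 ended, at -0.05 (-0.11 to 0.01), although with the longest transcript both stayed below 0.

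Of 24 tested genes of coat assembly and uncoating, 4 were above and 8 below 0, or 2 and 8 without the trend. AAK1, the kinase that phosphorylates AP2M1, had 7190 and 5343 counts and a log2 ratio of -0.31 (-0.36 to -0.26), or -0.16 with the longest transcript. ITSN2, an intersectin scaffold, had 5803 and 4341 counts and -0.30 (-0.36 to -0.24). The chaperone that strips clathrin from vesicles, HSPA8, was higher, with 220699 and 230174 counts and 0.18 (0.17 to 0.19). SH3GL1, an endophilin, had 2444 and 2530 counts and 0.17 (0.09 to 0.25), a call that ended without the trend, at 0.06 (-0.02 to 0.14).

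In retromer and sorting nexins, 6 of 23 were above and 7 below 0, or 7 and 5 without the trend. SNX30 had 1112 and 734 counts and a log2 ratio of -0.48 (-0.62 to -0.35), and WASHC4, of the WASH complex, had 2871 and 2222 counts and -0.25 (-0.33 to -0.17), or -0.10 with the longest transcript. COMMD1 and CCDC22, which belong to a complex that works with WASH, were higher, at 588 and 650 counts and 0.26 (0.10 to 0.43) for COMMD1 and at 673 and 731 counts and 0.24 (0.08 to 0.39) for CCDC22, whose call ended without the trend, at 0.15 (-0.01 to 0.30). Of 7 exocyst genes beside EXOC6 1 was above and 3 below 0, or 2 and 1 without the trend. EXOC3 had 2274 and 2454 counts and 0.23 (0.14 to 0.31), EXOC2 had 2530 and 2024 counts and -0.20 (-0.29 to -0.12), and EXOC5 had 4494 and 3817 counts and -0.12 (-0.18 to -0.06), which turned to 0.05 without the trend. The late endosome tethers had 5 of 15 above and 2 below 0, or 3 and 1 without the trend. With the longest transcript 6 were above and 2 below. VPS18 and VPS11, core subunits of the tethering complexes HOPS and CORVET, were at 0.18 (0.09 to 0.27) and 0.13 (0.04 to 0.23), with 2013 and 2099 and with 1772 and 1794 counts. TGFBRAP1, of CORVET, had 4223 and 3516 counts and -0.15 (-0.21 to -0.08), and CCZ1B, of the exchange factor of RAB7, had 2581 and 2175 counts and -0.13 (-0.21 to -0.05), a call that ended without the trend, at -0.08, but not with the longest transcript. VPS18 was then at 0.11 (0.03 to 0.20).

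Of the 14 tested genes of V-ATPase assembly and regulation, none had an interval above 0 and 5 had one below as counted. Without the trend 1 was above and 4 below, the higher one being OXR1, which binds V1 and is named after its values were seen, at 0.23 (0.11 to 0.34), and upper-quartile scaling also put 1 gene above 0. With the longest transcript 1 was above and 6 were below. DMXL1, of the complex that reassembles the pump, had 2361 and 1752 counts and a log2 ratio of -0.31 (-0.40 to -0.22), or -0.13 (-0.22 to -0.04) without the trend. NCOA7, which binds V1, had 1746 and 1276 counts and -0.33 (-0.44 to -0.23), or -0.21 without the trend. TFEB, the transcription factor that is known to raise V-ATPase and lysosomal genes and was singled out after its values were seen, had 103 and 61 counts and -0.62 (-1.12 to -0.17). Its relative TFE3, with more counts, 1838 and 1664, was level as counted, at -0.03 (-0.12 to 0.07), but lay at -0.10 with an interval just below 0 with the longest transcript, and MITF was listed at 0.

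**Figure D5:**
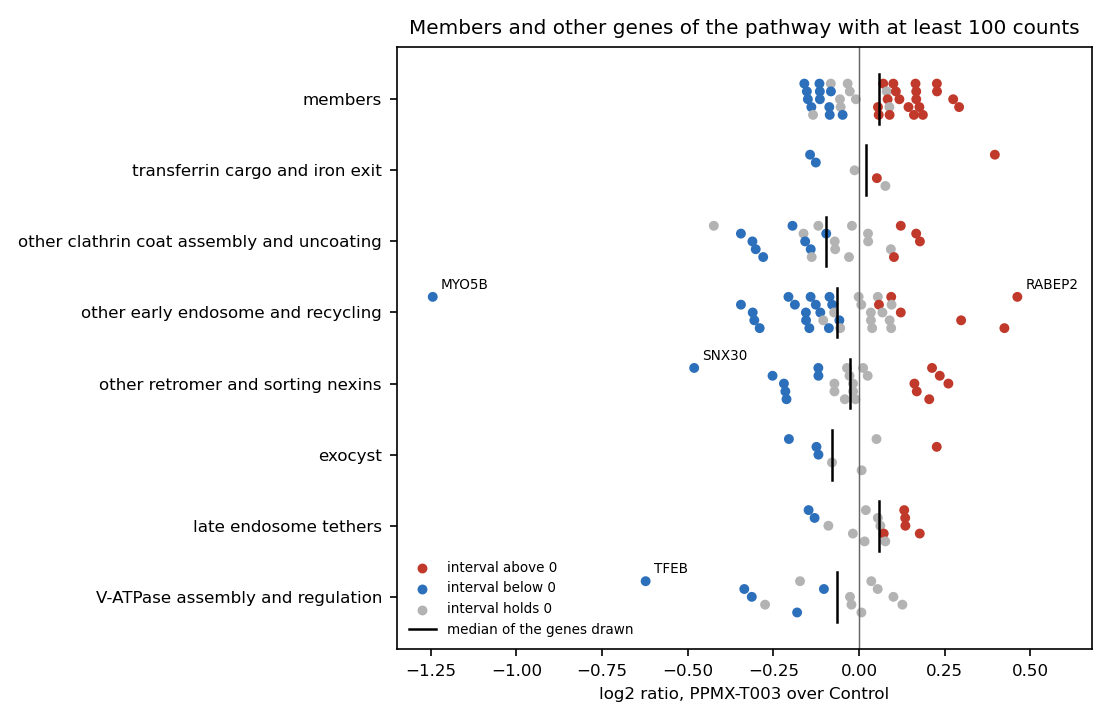
Log2 ratio of the 39 members and of the tested genes with at least 100 counts in each list of other pathway genes, coloured by whether the counting interval lay above 0, below 0 or held 0, with the median of the genes drawn as a black line. MYO5B, at -1.24, stands apart from the rest, and the members' median of 0.06 lies to the right of 0.

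TFEB and its relatives bind an element with the core TCACGTGA, and MYC and many other factors bind its inner letters CACGTG, so the promoters of the members were searched for both. Both motifs are palindromes and read the same on either strand, and every TCACGTGA holds a CACGTG. RefSeq promoter windows, from 250 bases before to 50 after a transcription start in GRCh38.p14, were given for 35 of the 40 members, in 45 windows. CACGTG stood in 6 of the 45 windows (13.3%), against 7.26% of all 35116 windows and 9.56% of the 14038 windows of genes tested. TCACGTGA stood in 4 of the 45 (8.89%), against 0.98% and 1.74%.

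The 4 genes with TCACGTGA are shown because they include the highest and the lowest log2 ratio of the members. Each stretch holds 30 bases in the direction of the gene, with the motif in capitals.
ATP6V0D1: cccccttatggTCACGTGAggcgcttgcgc
ATP6V1G1: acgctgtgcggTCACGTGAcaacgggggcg
RAB5A: cactcgcagggTCACGTGAcatcctgcctc
PICALM, near motif: cggtgtccgagTCACGTGAcccggggcagc
PICALM, far motif: ggcagggagagTCACGTGAtgcgccggctg
The ATP6V0D1 stretch is at chr16:67481199-67481228 on the minus strand, with its motif 60 bases before the start, and in GENCODE it lies in an exon and UTR of a longer ATP6V0D1 transcript. The ATP6V1G1 stretch, at chr9:114587699-114587728 on the plus strand, has its motif 59 bases before the start and overlaps no annotated gene. The RAB5A stretch, at chr3:19946964-19946993 on the plus strand, has its motif 122 bases before the start and overlaps an exon and UTR of EFHB on the other strand. The PICALM stretches belong to the downstream of a pair of starts, at chr11:86069115-86069144 and chr11:86069299-86069328 on the minus strand, with motifs 49 and 233 bases before that start, and lie within the PICALM gene, the far one overlapping an exon.

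Genes with TCACGTGA lay on both sides of 0. The motif stood in 8.7% of 23 windows of members above 0 and 20% of 10 windows of those below. CACGTG stood in 13% and 30% of these windows. Neither stood in the 11 windows of members whose intervals held 0. With so few genes, a relation between motif and direction was not tested. Of the genes with TCACGTGA, ATP6V0D1 and ATP6V1G1 had intervals above 0 and RAB5A and PICALM below. The windows with CACGTG alone belonged to ATP6V0B, with 2 copies at 57 and 39 bases before the start and an interval above 0, and to RAB4A, at 102 bases before the start and an interval below 0. A match describes letters in a window and neither a bound site nor a cause.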

How the data were processed

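The authors sequenced stranded poly(A) libraries, and the submitters' processing notes name Trimmomatic 0.38, HISAT2 2.2.0, StringTie 2.1.3b and the build hg38. The deposited read counts are whole numbers that StringTie derives from coverage, so reads of shared exons were divided by an estimate. They are written with commas and were recorded under a general unit, and no count model was fitted. The deposited FPKM and TPM, rounded by the authors, are used as a score.

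The members and lists were chosen with earlier results of these data known. Scaling was by the trimmed mean of M values (factors of 1.00), with a prior count of 2 for log2 ratios, in Python 3.11.15, and was tested on simulated data. Clopper-Pearson intervals (95%) were taken on the PPMX-T003 share of a gene's reads with scipy 1.17.1. Pair ratios were chosen after seeing the data and have normal intervals on the log scale. GC content and length came from GENCODE release 29, known for 91.8% of genes tested, and were fitted over 10161 genes with at least 200 counts by robust regression with statsmodels 0.14.6. Named genes were all members, TFRC, TF, STEAP3, SLC11A2, isoforms within families, and up to 2 per direction from each other list by the interval bound nearest 0, among genes with at least 100 counts. TFEB, TFE3, MITF and OXR1 were named outside this rule. In the lists, 4 symbols without a row under that name were not used. Alternatives were other scalings, priors, filters and thresholds, the TPM and FPKM, removal of the trend, members without shared exons and protein-coding genes alone. The result of 1 marker gene is not reported here.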

Additional observations from a re-analysis of the deposited data

How the results depend on the processing

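Removal of the trend with GC content and length changed the counts of members above and below 0 most. The 19 members with intervals above 0 and 11 below became 15 and 5 with the median transcript, and 11 and 3 with the longest. Members past 2-fold stayed at 0, also from 1.5-fold, and were 2 from 1.2-fold (RAB11B and ATP6V0D1, against 24.6% of all genes tested). That share includes genes with few counts and is not the closer background, so it does not show the members to be unusually level. The members' median of 0.057 ran from 0.013 with the authors' TPM to 0.070 with upper-quartile scaling, and was 0.022 without the trend. Other scalings gave 17 to 19 members above 0 and 10 to 13 below and turned no member's call to the other sign. The background moved with these scalings. Of genes with at least 1000 counts, 27.7% were above and 32.2% below 0 in the main setting. Library size and median-of-ratios scaling put fewer of these genes above and more below, and upper-quartile scaling did the reverse. Without the 4 members that share exons, 16 members were above and 10 below 0. Prior counts and count filters moved no member's value beyond its interval.

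Single genes had rows if they were members or list genes named in the report with a log2 ratio, and some unnamed genes of the lists, such as RAB22A, also changed sign. Of the genes with rows, calls that changed sign with the median transcript were AP2A1 (-0.014), EPS15 (0.072), RAB4A (0.0024), RAB5C (-0.018), EHD1 (-0.0069) and EXOC5 (0.047). With the longest transcript they were AP2A1 (-0.034), AP2B1 (0.020), AP2S1 (-0.0027), EPS15 (0.037), RAB5C (-0.0010), VPS35 (0.0034), EXOC5 (0.084) and the ratio of AP2S1 over AP2B1 (-0.022), which was chosen after seeing the data. The cause was not tested.

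No paired analysis was possible because each group has 1 library, which also leaves no replicate to omit. Intervals cover counting error and not differences between dishes.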
